A study of Mus musculus with 67 samples.

Results

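A set of 10 genes of the heat shock response was followed in single cultured smooth muscle cells of the mouse aorta: Hspb1, Cryab, Hspa1a, Hspa1b, Hspa8, Hsp90aa1, Hsp90ab1, Dnajb1, Hsph1 and Hspe1. They were chosen by name as heat shock protein genes of the cytosol, by a rule that names no measured value though earlier results of these data were known, and make up 10 of 39179 measured gene rows, of which 20000 were detected at all. The protein of Hspe1 works in mitochondria, so the description as cytosolic holds for the other 9. The cells came from adult C57Bl6 mice (male, 3 to 4 months old, descending aorta) and were profiled at passage 1 (22 cells) or passage 2 (45 cells), each cell as 1 library. All were grown in DMEM with 10% serum and 1% antibiotic and left alone for 5 days before passage 1 cells were trypsinized and replated to give passage 2. No group was heated, drug treated or genetically altered according to the labels, and freshly isolated cells were not analysed here. The study asked how single cells of this culture differ within and between the passages.

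The labels tie no cell to an animal or a culture, so each passage counts as 1 sample, and neither p-values nor standard errors are given. An SD is the spread over the cells of a passage, and 95% intervals cover counting error only. Those on ratios of reads take amplified reads without molecular identifiers as independent. Those on shares of cells take the 22 or 45 cells of 1 sample as draws, and neither kind covers the spread between cultures or animals. Every passage 1 label carries another prefix than the passage 2 labels, so passage and library set cannot be told apart. Passage 1 cells had 817021 to 1561129 reads (median 1227269.5) and passage 2 cells 548419 to 1509589 (median 885194), with medians of 8477.5 and 7257 genes detected. At least 3 of 10 smooth muscle markers were at 10 or more in 19 of 22 and 45 of 45 cells of passages 1 and 2. The defining marker Myh11 had a median of 0 at passage 1, and Cnn1, Des and Myocd had a median of 0 in both passages. At least 3 of 10 endothelial markers reached that value in 5 passage 1 cells (cells 11, 12, 13, 14 and 16) and 2 passage 2 cells (cells 8 and 11). Their summed level ran from 1.27 to 6082 over passage 1 cells and from 0 to 7293 over passage 2 cells. At least 3 of 8 fibroblast markers reached 10 in 14 of 22 and 14 of 45 cells, with a median summed level of 732 at passage 1 and 288 at passage 2, while that of the smooth muscle markers was 1509 and 7472. No cell had 3 macrophage or 3 striated muscle markers at 10, and Ptprc and Adgre1 were at 0 in every cell. The proliferation genes Mki67 or Top2a reached 10 in 16 of 22 passage 1 cells and 10 of 45 passage 2 cells. Log2 ratios without the endothelial-marker cells or without the cells with Mki67 or Top2a are given for some of the heat shock genes. Beyond that the part these cells played was not tested.

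Heat shock proteins are molecular chaperones, which keep other proteins from clumping and help them fold. Small heat shock proteins such as HSPB1 and alpha B-crystallin hold unfolded proteins without using ATP, and in smooth muscle both are known as partners of the cytoskeleton. HSP70 proteins bind and release their clients in an ATP cycle that J proteins such as DNAJB1 start and nucleotide exchange factors such as HSPH1 (HSP110) complete, and HSP90 proteins act late, on kinases and steroid receptors. Under stress the transcription factor HSF1 binds heat shock elements, inverted repeats of the unit GAA, in front of the inducible genes. HSC70 (Hspa8) and HSP90 beta (Hsp90ab1) are made in unstressed cells too, while Hspa1a and Hspa1b are the classical genes switched on by heat.

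The stretches in front of 4 of the genes are shown for the nearly identical regulatory DNA of the Hspa1 pair and for the heat shock element letters of Hspb1 and Hspe1. They are from RefSeq on the build GRCm38.p6, 5′ to 3′ on the strand of the gene, and 6 of the 10 genes had an entry in the table used. Hspa1a (chr17:34972157-34972406, minus strand) and Hspa1b (chr17:34959239-34959488, minus strand) are the 250 bases before each start, with the bases that differ in capitals. Hspb1 (chr5:135887797-135887836, plus strand) and Hspe1 (chr1:55088051-55088080, plus strand) are shown with the heat shock element letters in capitals.
Hspa1a: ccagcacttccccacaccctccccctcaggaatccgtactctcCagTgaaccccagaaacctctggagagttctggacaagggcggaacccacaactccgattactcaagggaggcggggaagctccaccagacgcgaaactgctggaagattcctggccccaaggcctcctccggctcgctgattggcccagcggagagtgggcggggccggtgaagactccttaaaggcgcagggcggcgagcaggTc
Hspa1b: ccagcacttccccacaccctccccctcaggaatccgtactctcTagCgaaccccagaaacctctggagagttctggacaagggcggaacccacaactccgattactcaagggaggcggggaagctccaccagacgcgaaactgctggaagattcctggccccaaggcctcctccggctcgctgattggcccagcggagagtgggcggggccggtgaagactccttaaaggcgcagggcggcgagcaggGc
Hspb1: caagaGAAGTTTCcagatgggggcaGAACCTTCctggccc
Hspe1: acggtccgTTCTAGAACCTTCCGGAAggcc
The Hspa1 stretches were 98.8% identical and differed at 3 positions, C44T, T47C and T249G, where the Hspa1a base is given first, positions count from 1 at the 5′ end, and the Hspa1b base is last. A heat shock element of 2 units (GAANNTTC or TTCNNGAA, both strands searched) was present once in each, beginning 104 bases before the start. Hspb1 had 2 such pairs of units, beginning 117 and 97 bases before the start. Hspe1 had the longer form of 3 units (GAANNTTCNNGAA or TTCNNGAANNTTC, which contains the form of 2 units), in 2 overlapping matches beginning 89 and 84 bases before the start. That stretch also lies over an exon of Hspd1, the neighbouring gene read in the other direction. Hsph1 had a match of 3 units beginning 37 or 16 bases after its start, depending on which of its 2 annotated starts is used. For Dnajb1 these letters were not found in either of its 2 windows. Of 32851 promoters of the same length (300 bases, 250 before and 50 after the start), 0.603% held the form of 3 units and 15.1% the form of 2 units. These matches describe letters in the reference and are not measured binding.

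**Figure D1:**
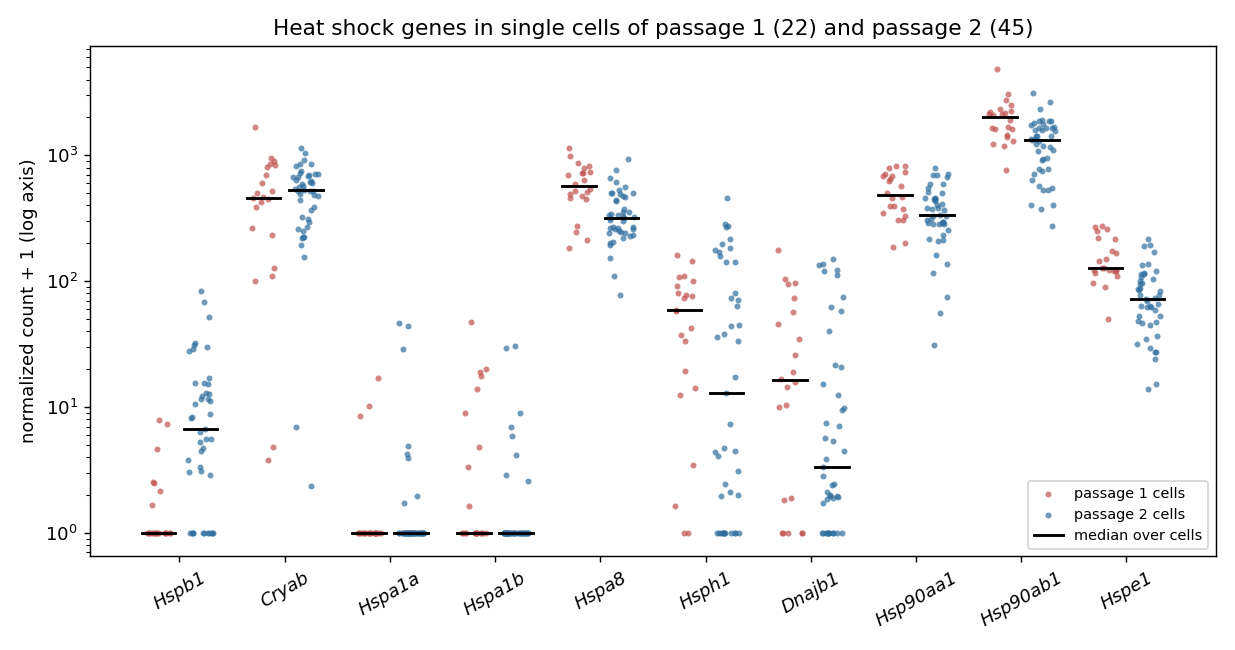
Normalized count plus 1 on a log axis for each of the 10 heat shock genes; every point is 1 cell (passage 1 red, 22 cells; passage 2 blue, 45 cells) and the black bar is the median over cells. Hsp90ab1 stands highest in both passages, Hspa1a and Hspa1b sit at 0 in most cells, and only for Hspb1 does the median leave 0 between the passages (0 and 5.71).

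Together the heat shock genes took a small share of the reads, with a lower mean at passage 2. They made up 0.241 to 1.31% of a passage 1 cell's reads (median 0.432%) and 0.131 to 0.539% of a passage 2 cell's reads (median 0.302%). The means were 0.478 ± 0.212% (SD, n = 22) and 0.311 ± 0.0814% (SD, n = 45), a ratio of 0.651, and the cells of the passages overlapped. Passage 1 cell 21 had the highest share, 1.31%, together with the fewest reads (817021) and the fewest genes (4017) of its passage, and without it the ratio was 0.710. A value of at least 10 was reached by 5 to 8 of the 10 genes in each cell, with medians of 7 at passage 1 and 6 at passage 2.

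Of the 10 genes, 4 had a higher mean at passage 2 and 6 a lower one, where 45.3% of 8682 genes kept by a filter (in either passage, a mean of 10 or more and detection in 25% or more of the cells) were higher and 54.7% lower. The log2 ratio compares log2(mean + 1) of the passages, so it understates differences of genes with low values. Its median over the 10 was -0.49, from -1.26 for Hspa1b to 2.72 for Hspb1, beside a median of -0.11 over the kept genes. A log2 ratio of 1 or more was found for 1 of the 10 (Hspb1), against 14.4% of the kept genes. A log2 ratio of -1 or less was found for 1 of the 10 (Hspa1b), against 19.4% of the kept genes. These counts are close to the background. The filter was passed by 8 of the 10: Hspa1a and Hspa1b did not, and Hspb1 passed only through passage 2.

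Compared per kilobase of exon, the order of the levels was led by Hsp90ab1 at 671 in passage 1 and 428 in passage 2, followed by Cryab at 349 and 353. Hspa8 (138 and 82.9), Hsp90aa1 (131 and 94.1) and Hspe1 (106 and 54.2) formed the next tier. The SD over cells was larger than the gaps between neighbours in this tier, where Hspa8 and Hsp90aa1 changed places between the passages, and larger than the gap between Hsp90ab1 and Cryab at passage 2. The remaining 5 lay far lower, again with SDs larger than the gaps between neighbours, with Dnajb1 at 11.1 and 7.81, Hsph1 at 8.03 and 9.79, and Hspa1b at 2.07 and 0.661. Hspb1 went from the ninth place (0.965) to the sixth (11.8), and Hspa1a was at 0.499 and 0.961. The length used is that of all annotated exons of a gene together, 1031 bases for Hspb1 and 7266 for Hsph1. Their longest coding transcripts have 930 and 3802 bases. The place of Hspb1 beside Hsph1 at passage 2 thus depends on the choice of length, and so can the places of other near neighbours. By reads, Hsp90ab1 alone made up 51.4% of the reads of the 10 genes at passage 1 and 46.8% at passage 2, and Cryab 13.1% and 19.1%.

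The small heat shock protein genes went separate ways: Hspb1 was nearly silent at passage 1 and present in most cells at passage 2, while the mean of Cryab was nearly the same in both. Hspb1 (chromosome 5, 135887919 to 135889563) had a lowest value of 0, a median of 0 and a highest of 6.97 over passage 1 cells, and 0, 5.71 and 82.4 over passage 2 cells. In passage 2, 22 of 45 cells lay above the highest passage 1 cell, and the other passage 2 cells overlapped with passage 1. The means were 0.995 ± 2.04 (SD, n = 22) and 12.2 ± 17.6 (SD, n = 45), a log2 ratio of 2.72. Passage 2 was higher in 72.5% of the pairs of a passage 1 and a passage 2 cell and lower in 10.8%, the rest being ties at 0.

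Hspb1 rested on few reads at passage 1, 30 in all against 580 at passage 2, and relative to all reads the ratio was 12.3 (95% interval 8.55 to 18.5). A read was found in 7 of 22 cells (31.8%, exact Clopper-Pearson 95% interval 13.9 to 54.9) and 34 of 45 cells (75.6%, 60.5 to 87.1). After each cell was thinned to 500000 reads, which left no cell out, the cells with a read numbered 6 and 32. A value of at least 10 was reached in 0 of 22 passage 1 cells and in 18 of 45 passage 2 cells (40%, 25.7 to 55.7). As a background, 16 marker genes of striated muscle and macrophages had a read in a median of 0% and 1.11% of the cells, with the highest shares for Csf1r (68.2% and 37.8%) and Actn2 (22.7% and 24.4%). The passage 1 share of Hspb1 lies above all of these marker genes but Csf1r, and the passage 2 share above all of them. The highest passage 2 values were 82.4 in cell 16, 67.2 in cell 11, one of the endothelial-marker cells, and 51.3 in cell 23. The log2 ratio was 2.76 without the endothelial-marker cells, 2.77 without cells holding Mki67 or Top2a, and between 2.53 and 2.94 whichever cell was left out. With a pseudocount of 10 it was 1.01.

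Cryab (alpha B-crystallin; chromosome 9, 50751325 to 50756636) ran over passage 1 cells from 2.83 through a median of 461 to 1667, and over passage 2 cells from 1.37 through 529 to 1135. The ranges overlapped nearly completely. The means were 516 ± 390 (SD, n = 22) and 521 ± 256 (SD, n = 45), with a log2 ratio of 0.02, and passage 2 was higher in 54.5% of pairs. The coefficient of variation between cells was 0.756 at passage 1 and 0.491 at passage 2. The ratio of reads, relative to all reads, was 0.986 (95% interval 0.967 to 1.01). Its sign depended on the summary, from -0.27 in cells of the passages matched on reads to 0.43 with means of log2 values.

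The lowest Cryab values belonged to cells with endothelial markers. In 4 cells it was under 10: passage 1 cells 13 (3.78) and 14 (2.83) and passage 2 cells 8 (6.01) and 11 (1.37), and each had at least 3 endothelial markers at 10. Among cells without that marker set, the lowest Cryab values were 100 at passage 1 and 155 at passage 2. The other 3 endothelial-marker cells of passage 1 had Cryab at 126, 233 and 846, so the marker set and a low Cryab value did not coincide throughout. These are 7 cells picked out by their markers, and the difference was not tested.

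**Figure D2:**
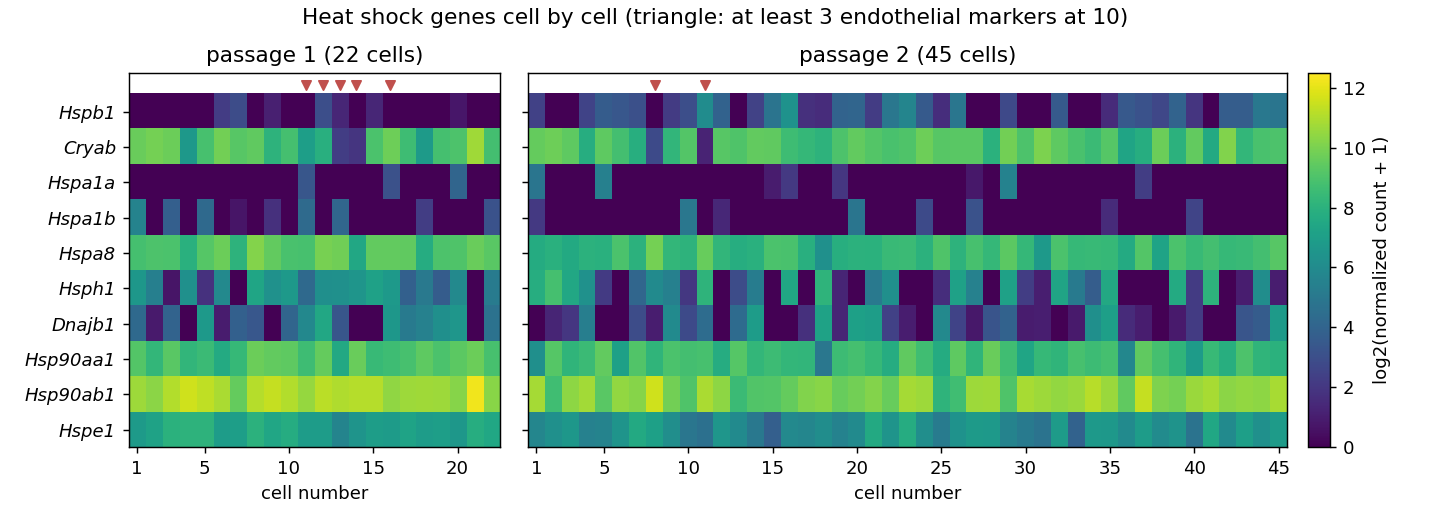
Log2(normalized count + 1) of the 10 genes (rows) in each cell (columns, numbered within its passage; left passage 1, right passage 2), with red triangles over cells that had at least 3 endothelial markers at a value of 10. The dark Cryab squares, at 1.37 to 6.01, stand under triangles, and the Hspa1a and Hspa1b rows are dark except in scattered cells.

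The stress-inducible HSP70 genes Hspa1a and Hspa1b were close to the detection limit in both passages. Hspa1a (chromosome 17, 34969190 to 34972156) had a lowest value and a median of 0 in both passages and reached 16 in passage 1 cell 20 and 45.7 in passage 2 cell 29. Hspa1b (chromosome 17, 34956436 to 34959238) also had a lowest value and a median of 0 and reached 46.5 in passage 1 cell 1 and 29.6 in passage 2 cell 10. Most cells of both passages thus lay at 0 and overlapped. Hspa1a averaged 1.48 ± 4.06 (SD, n = 22) and 2.85 ± 9.98 (SD, n = 45), a log2 ratio of 0.63, from 51 and 125 reads. Hspa1b averaged 5.81 ± 11.2 (SD, n = 22) and 1.85 ± 6.14 (SD, n = 45), a log2 ratio of -1.26, from 180 and 89 reads. By these means the pair went in opposite directions.

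Neither sign turned with any 1 cell left out, but the sizes moved, to between 0.21 and 1.10 for Hspa1a (0.21 without passage 2 cell 29, 1.10 without passage 1 cell 20) and between -1.62 and -0.77 for Hspa1b (-0.77 without passage 1 cell 1). Without the endothelial-marker cells Hspa1a was at 1.04, and without cells holding Mki67 or Top2a Hspa1b was at -1.88. In cells of the passages matched on reads both were lower at passage 2, Hspa1a at -0.45 and Hspa1b at -1.70. With a pseudocount of 10 they were at 0.16 and -0.42, and with medians over cells both were at 0. The opposite directions thus depended on the setting. The genes share sequence. Of the 50-base windows of the Hspa1b transcript, 62.3% also occur in Hspa1a, so reads could be split between them in a way the sources used here do not describe. Summed as 1 gene, they averaged 7.29 ± 11.8 (SD, n = 22) and 4.70 ± 11.4 (SD, n = 45), with a log2 ratio of -0.54. A read of either was found in 11 of 22 and 14 of 45 cells, and reads of both in 1 and 2 cells. Their own shares of cells with a read were 13.6% and 17.8% for Hspa1a and 40.9% and 17.8% for Hspa1b. The Hspa1a shares and the passage 2 share of Hspa1b lie below those of the marker gene Actn2 named above. The passage 1 share of Hspa1b lies above all of the marker genes but Csf1r. These shares were not read as expression.

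Hspa8, the constitutive HSC70, was abundant in every cell and lower at passage 2. Over passage 1 cells Hspa8 (chromosome 9, 40800984 to 40810087) ran from 182 through a median of 566 to 1146, and over passage 2 cells from 77 through 319 to 933. Of the passage 2 cells, 41 of 45 lay below the passage 1 median, though the ranges overlapped. The means were 595 ± 250 (SD, n = 22) and 357 ± 170 (SD, n = 45), a log2 ratio of -0.74, with passage 2 lower in 77.7% of pairs. The 2 endothelial-marker cells of passage 2 had its highest values, 933 and 766, above 660 in the highest of the other passage 2 cells. This did not hold at passage 1, where the 5 endothelial-marker cells ran from 182 to 983. There the lowest value belonged to endothelial-marker cell 14, and the highest, 1146, to cell 8 outside that set. Without cells holding Mki67 or Top2a the log2 ratio was -0.41, where the median of all kept genes was 0.02, and 6 passage 1 cells remained.

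For the partners of HSP70, Hsph1 and Dnajb1, the median and the share of cells at 10 or more were lower at passage 2. With medians over cells, the median log2 ratio of all kept genes was itself -0.60, and the median passage 2 cell had fewer reads. Shares of cells at 10 were not taken over all genes, so they are not given as a trait of these genes. Hsph1 encodes HSP110, an exchange factor for HSP70 (chromosome 5, 149614287 to 149636376). It ran from 0 through a median of 57.8 to 161 at passage 1 and from 0 through 12 to 455 at passage 2. At passage 2 the cells spread to both sides, with 12 of 45 at 0, where passage 1 had 2 of 22, and with 9 above the highest passage 1 cell. The means, 58.4 ± 47.4 (SD, n = 22) and 71.1 ± 105 (SD, n = 45), gave a log2 ratio of 0.28, while the medians gave -2.17. A value of at least 10 was reached in 18 of 22 cells (81.8%, exact 95% interval 59.7 to 94.8) and 23 of 45 cells (51.1%, 35.8 to 66.3). The coefficient of variation was 0.812 and 1.47. Mean and median thus pointed in opposite directions, and neither is given here as the direction of Hsph1.

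Beside markers of dividing cells, Hsph1 stood in opposite orders in the passages, which was not tested. At passage 1 the 16 cells with Mki67 or Top2a at 10 had a median of 74, and the 6 cells without had a median of 7.86. At passage 2 the 10 cells with these markers had a median of 5.08, and the 35 others had a median of 16.2. Leaving such cells out of both passages turned the log2 ratio to 1.93, from 6 and 35 cells. The log2 ratio was -0.32 in the 14 cells of each passage matched on reads.

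Dnajb1, the J protein that delivers clients to HSP70 (chromosome 8, 83608193 to 83612653), ran from 0 through a median of 15.4 to 177 at passage 1 and from 0 through 2.31 to 148 at passage 2. Cells at 0 numbered 5 of 22 and 11 of 45, and the ranges overlapped. The means were 35.6 ± 46.4 (SD, n = 22) and 25 ± 44.3 (SD, n = 45), a log2 ratio of -0.49, and the medians gave -2.31. A value of at least 10 was reached in 13 of 22 cells (59.1%, exact 95% interval 36.4 to 79.3) and 14 of 45 cells (31.1%, 18.2 to 46.6). Here mean, median and the share of cells at 10 were each lower at passage 2. The share of cells with any read hardly differed, at 77.3% and 75.6%. The highest passage 1 value belonged to cell 12, an endothelial-marker cell. Without it the log2 ratio was -0.20, and without the endothelial-marker cells of both passages -0.03. Leaving out cells with Mki67 or Top2a moved the log2 ratio of Dnajb1 the other way, to -0.91, from 6 and 35 cells.

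Both HSP90 genes were abundant in every cell and lower at passage 2. Hsp90ab1, the constitutive HSP90 beta (chromosome 17, 45567775 to 45573271), ran from 759 through a median of 2001 to 4840 at passage 1 and from 276 through 1327 to 3120 at passage 2. All but 3 of the 45 passage 2 cells lay below the passage 1 median (42 of 45), and 11 lay below the lowest passage 1 cell. The means were 2012 ± 841 (SD, n = 22) and 1284 ± 622 (SD, n = 45), a log2 ratio of -0.65. The ratio of reads relative to all reads was 0.617 (95% interval 0.610 to 0.624). The highest passage 1 value was again that of cell 21, without which the log2 ratio was -0.55.

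Hsp90aa1, the inducible HSP90 alpha (chromosome 12, 110690605 to 110702728), ran from 187 through a median of 481 to 824 at passage 1 and from 30.4 through 337 to 788 at passage 2. The passages overlapped more than for Hsp90ab1, with 35 of 45 passage 2 cells below the passage 1 median and 6 below its lowest cell. The means were 516 ± 202 (SD, n = 22) and 370 ± 180 (SD, n = 45), a log2 ratio of -0.48. Its lowest passage 2 cell, cell 18, was also the cell with the fewest reads of that passage (548419) and had the lowest Hspa8 value.

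Hspe1 encodes HSP10, the lid of the mitochondrial chaperonin, and had the largest share of cell pairs in 1 direction among the 10 genes. Over passage 1 cells Hspe1 (chromosome 1, 55088132 to 55091307) ran from 49.1 through a median of 126 to 272, and over passage 2 cells from 13 through 70.7 to 216. Of the passage 2 cells 13 lay below the lowest passage 1 cell, and of the passage 1 cells 6 lay above the highest passage 2 cell. The means were 156 ± 63.9 (SD, n = 22) and 79.9 ± 47.8 (SD, n = 45), a log2 ratio of -0.96, with passage 2 lower in 86.2% of pairs. The log2 ratio was -1.01 without passage 2 cell 23. The 5 endothelial-marker cells of passage 1 had Hspe1 at 49.1 to 121 and the other passage 1 cells at 96 to 272, and without the endothelial-marker cells of both passages the log2 ratio was -1.1. Its partner Hspd1 (HSP60), which starts 111 bases away on the other strand and was named for that reason, averaged 131 ± 91 (SD, n = 22) and 47.4 ± 52.5 (SD, n = 45), a log2 ratio of -1.45. The genes overlap by 112 exon bases, and without known strand handling reads there cannot be assigned to one of them.

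**Figure D3:**
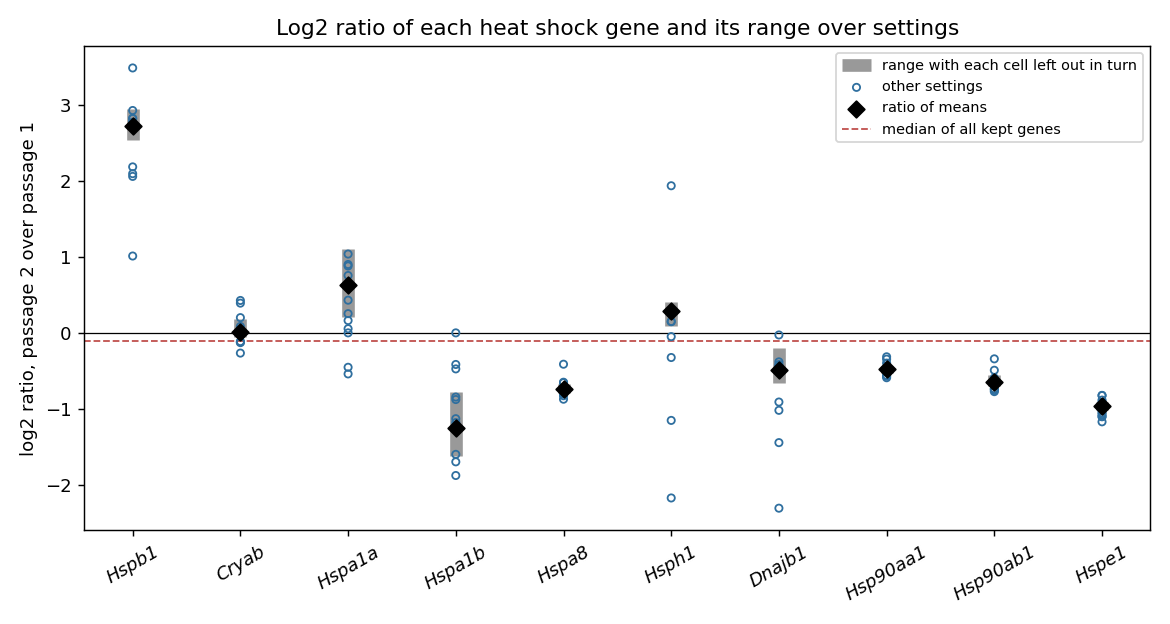
Log2 ratio of passage 2 over passage 1 for each gene: black diamonds are ratios of means, grey bars the range with each cell left out in turn, open circles the other settings, and the dashed line the median of all kept genes (-0.11). Hspb1 stays above 0 and Hspa8, Hsp90aa1, Hsp90ab1, Hspe1 and Dnajb1 below 0 throughout, while Cryab, Hspa1a and Hsph1 fall on both sides and Hspa1b reaches 0 with medians over cells.

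Across the other settings run for each gene, Hspb1 stayed higher at passage 2 and Hspa8, Hsp90aa1, Hsp90ab1, Hspe1 and Dnajb1 stayed lower. The lower group was also set against the median of all kept genes, which shifted with the summary. Dnajb1 (-0.03) stood above that median (-0.08) without the endothelial-marker cells. With medians over cells that median was -0.60, and Hsp90ab1 (-0.59) and Hsp90aa1 (-0.51) then stood no lower than it, while Hspa8 was at -0.83 and Hspe1 at -0.82. With means of log2 values it was -0.62, beside -0.74 for Hsp90ab1, -0.59 for Hsp90aa1, -0.74 for Hspa8 and -1.1 for Hspe1. In cells matched on reads it was -0.25, beside -0.67 for Hsp90ab1, -0.31 for Hsp90aa1, -0.87 for Hspa8, -1.17 for Hspe1 and -1.44 for Dnajb1. Without the 25% of cells with the fewest genes it was -0.13, beside -0.34, -0.35, -0.66, -0.82 and -0.52 in the same order.

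Several of the genes have copies elsewhere in the genome that could take or lend reads. In the longest coding transcript, 51.6% of the 50-base windows of Hspb1, 74.8% of Hspa8, 58.5% of Hsp90aa1, 66.3% of Hspa1a and 44.8% of Hspe1 occur in another gene, against 4.49% of Hsp90ab1, 0.441% of Dnajb1 and 0% of Hsph1. For Cryab the share was 19%, all of it the overlapping gene Hspb2. Gm26825, a noncoding gene on chromosome 5 that holds 69% of the Hspa8 windows, averaged 34.7 ± 16.2 (SD, n = 22) and 22.4 ± 12.6 (SD, n = 45) and followed Hspa8 over cells (Spearman's rho 0.85 and 0.76). Gm12346, a pseudogene with 51.5% of the Hsp90aa1 windows, averaged 13.4 ± 7.78 and 7.82 ± 7.42 and followed Hsp90aa1 (rho 0.85 and 0.62). Adding such copies moved the log2 ratios little for Hspb1 (2.82), Hspa8 (-0.73) and Hsp90aa1 (-0.49), and left Hspa1a at -0.54 and Hspa1b at -0.47. For Hspa8 the gene with the most shared windows, Gm15459 (70%), was not among the copies added. For Hspa1a the copy added was Hspa1b, so -0.54 is the value of the summed pair given above. For Hspa1b the copies were Hspa1a and Gm20481. No copy was added for Cryab, Hsp90ab1, Dnajb1, Hsph1 or Hspe1, so the shared windows of Hspe1 remain an uncertainty of its value.

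Correlations between the 10 genes from cell to cell lay on both sides of 0, and no other gene pairs were taken as a baseline. Over the 45 pairs of genes, Spearman's rho ran from -0.45 to 0.45 at passage 1 (median -0.04, n = 22 cells) and from -0.33 to 0.38 at passage 2 (median -0.02, n = 45 cells). It was above 0 in both passages for 11 of the 45 pairs. The pair with Hsp90ab1 and Hspe1 had 0.42 and 0.36, Hspb1 and Hspa8 had 0.40 and 0.29, and Hspa8 and Hsp90ab1 had 0.25 and 0.29. Hspa1a and Dnajb1, both inducible, had 0.45 at passage 1 and -0.33 at passage 2, and Hspa1a and Hspa1b had 0.01 and 0.07. Cryab and Hspb2, which start 1029 bases apart, had 0.51 and 0.30, though 252 exon bases of Cryab lie over Hspb2. All these values share the library and depth of each cell, and Dnajb1 itself had a rho with reads per cell of 0.58 at passage 1 and -0.15 at passage 2.

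**Figure D4:**
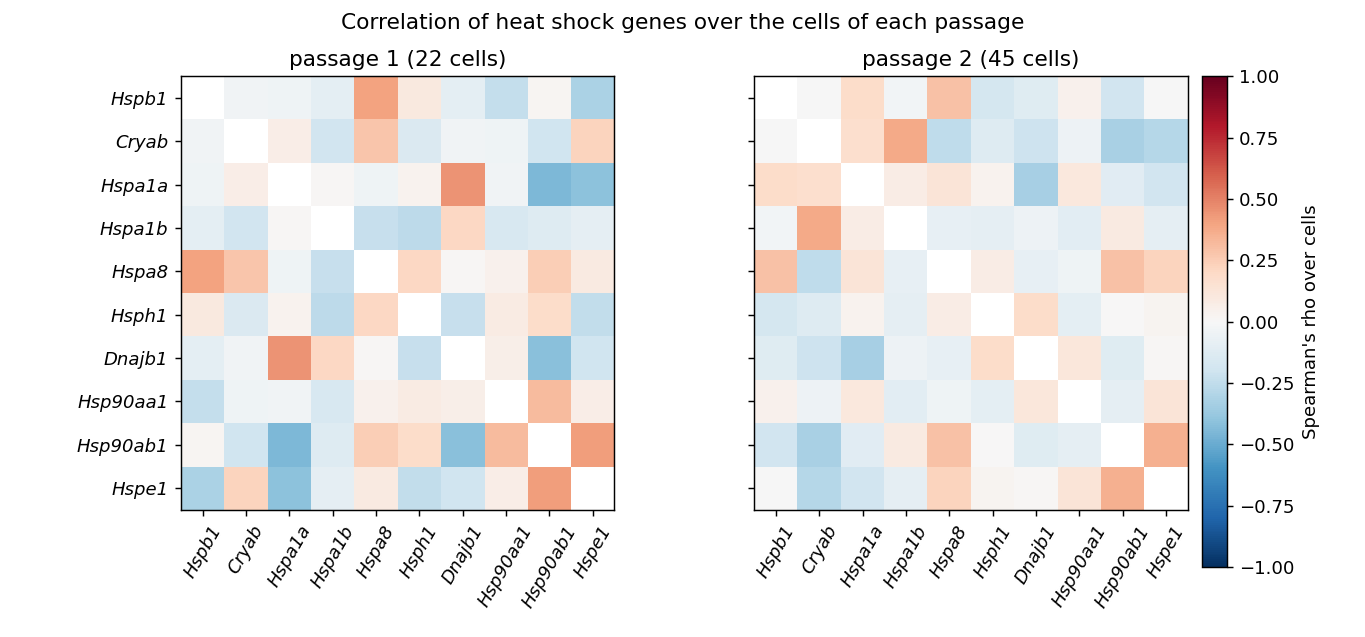
Spearman's rho between each pair of the 10 genes over the 22 cells of passage 1 (left) and the 45 cells of passage 2 (right), from blue (negative) to red (positive). Most squares are pale, with values between -0.45 and 0.45, and the coloured squares of one passage are mostly not those of the other.

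The most alike genes were found by the mean of the Spearman correlations within the passages, over 22 and 45 cells, among 5687 kept genes detected in 50% or more of the cells in both passages. Only the 7 members that met the same detection limit were searched, which leaves out Hspb1, Hspa1a and Hspa1b. For Hspa8 they were a gene row without a symbol (0.87), Gm26825 (0.81) and Rabggta (0.45), and for Hsp90aa1 Gm12346 (0.73), Eif4g2 (0.45) and Swi5 (0.44). The leading entries there include the sequence copies described above. For Cryab they were Pdzrn3 (0.58), Ak1 (0.50) and S100a4 (0.47), and for Hsph1 Smarcad1 (0.54), Lamtor5 (0.51) and Srsf3 (0.49). For Hspe1 they were Ehd1 (0.53), Mrpl41 (0.52) and Gm26762 (0.50), and for Hsp90ab1 Ctnnal1 (0.52), Arf1 (0.47) and Rpl8 (0.45). Dnajb1 was most like Gtf2a1 (0.47), Mut (0.45) and Tmx2 (0.45). Being the highest of 5687 genes, these values are high by selection.

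Of 11 lists of related genes, 6 had a median log2 ratio under that of all kept genes (-0.11), with the helpers of HSP90 leading in number. All 6 were chaperone or cochaperone lists, the mitochondrial one with proteases. The lists of HSF factors, of ubiquitin and autophagy stress genes and of immediate early genes are not chaperone lists. They lay above that median, as did the other small heat shock proteins and the other HSP70 and HSP110 genes. The counts and list medians that follow rest on ratios of means. The counts can be read against the kept genes as a whole, of which 54.7% were lower and 45.3% higher. Of 14 cochaperones of HSP90, 13 had a lower mean and 1 a higher one, with a median log2 ratio of -0.60. Ptges3 (p23, which stabilizes the closed HSP90 dimer) averaged 1001 ± 323 and 742 ± 294, a log2 ratio of -0.43, and Chordc1 averaged 140 ± 174 and 46.6 ± 87.9 (-1.56). Cacybp was at -0.93, and the myosin chaperone gene Unc45a, the exception, at 0.41, or -0.16 without passage 2 cell 38. Among the lower genes, Fkbp5 (-0.23), Cdc37l1 (-0.14) and Ppp5c (-0.78) also turned sign with 1 cell left out, reaching 1.25, 0.19 and 0.06. Of 14 subunits of the cytosolic chaperonin and prefoldin, which act in the folding of actin and tubulin, 11 were lower and 3 higher, with a median of -0.52. The lower Cct4 (-0.06) and Pfdn6 (-0.15) and the higher Pfdn1 (0.03) turned sign with 1 cell left out, reaching 0.06, 0.26 and -0.05. Cct7 averaged 415 ± 269 and 172 ± 202 (-1.27), Cct8 was at -0.88 and Tcp1 at -0.96, while Pfdn2 was higher from a low start, at 3.05 ± 5.90 and 21.7 ± 50.9 (2.49).

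Other parts of the network were mixed, and the counts for HSP70 cofactors and J proteins lay near those shares (54.7% lower). Of 8 cofactors of HSP70, 6 were lower and 2 higher (median -0.49), from Hspbp1 at 24.6 ± 36 and 4.93 ± 15.5 (-2.11) to St13, the HIP protein, at 1411 ± 672 and 2095 ± 847 (0.57). Bag2 was at -0.74, but at 0.02 without passage 1 cell 21. Of 9 other J proteins, 6 were lower and 3 higher (median -0.27). The highest among these was Dnajb4, at 236 ± 203 and 590 ± 533 (1.32), and the lowest Dnajc7, at -1.31, or -0.75 without passage 1 cell 21. Of 4 other HSP70 and HSP110 genes, 3 were higher and 1 lower (median 0.42). Hspa13 was higher by its mean (0.29), but its median over cells was 73 at passage 1 and 41.8 at passage 2. Hspa2 averaged 18.5 ± 32.9 and 115 ± 154 (2.58) and Hspa4l 38.2 ± 59.1 and 17.9 ± 34.9 (-1.05, or -0.76 without passage 1 cell 3). Of 4 other small heat shock protein genes, 3 were higher and 1 lower (median 0.29). Hspb6 was higher by its mean (0.57), but its median over cells was 57.1 at passage 1 and 48.6 at passage 2. Hspb11 was at 0.01, and reached -0.20 with 1 cell left out. Hspb2 averaged 21.4 ± 23.8 and 48.4 ± 53.7 (1.14), and Hspb8 43.2 ± 44.9 and 25 ± 53.5 (-0.77).

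In the organelles, 8 of 10 mitochondrial chaperone and protease genes were lower and 2 higher (median -0.36), among them Lonp1 at 31.7 ± 57.6 and 4.33 ± 10.8 (-2.62) and Clpp at 77.1 ± 75.4 and 26.9 ± 62.4 (-1.48). The 2 higher genes, Trap1 (0.28) and Dnaja3 (0.18), reached -0.09 and -0.40 with 1 cell left out. The lower Grpel1 (-0.05) and Clpb (-0.17) likewise reached 0.05 and 0.66. All 4 genes of the endoplasmic reticulum list were lower (median -0.72), with Hsp90b1 at 1850 ± 898 and 963 ± 692 (-0.94) and Hspa5 (BiP) at -0.49. Hyou1 was at -1.54, or -0.52 without passage 1 cell 13, and Serpinh1, a collagen chaperone, at -0.03, or 0.05 without passage 1 cell 2.

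The HSF factors and other stress genes mostly had higher means at passage 2. All 3 kept genes of the HSF list had a higher mean (median 0.61, against 45.3% of kept genes higher), with Hsbp1, which binds HSF1 and restrains it, at 140 ± 72.1 and 257 ± 148 (0.87). Hsf2 averaged 11.8 ± 15.5 and 18.6 ± 22.5 (0.61). Hsf1 averaged 14.5 ± 25.9 and 20.3 ± 72.2 (0.46) but was at -0.43 without passage 2 cell 18. Its median over cells was 2.18 at passage 1 and 0 at passage 2, so mean and median of Hsf1 differ in direction. All 5 ubiquitin and autophagy stress genes had a higher mean (median 0.26), from Ubb at 557 ± 124 and 615 ± 187 (0.14) to Sqstm1 (p62) at 167 ± 134 and 308 ± 336 (0.88). Of 16 immediate early genes, which respond within minutes to serum or handling, 14 were higher and 2 lower (median 1.62), against 45.3% higher among the kept genes, and 11 had a log2 ratio of 1 or more, against 14.4%. Dusp1 averaged 114 ± 129 and 592 ± 507 (2.37). Their direction was thus opposite to that of Hspa8, Hsp90aa1, Hsp90ab1 and Hspe1. SDs in these paragraphs are over 22 and 45 cells.

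**Figure D5:**
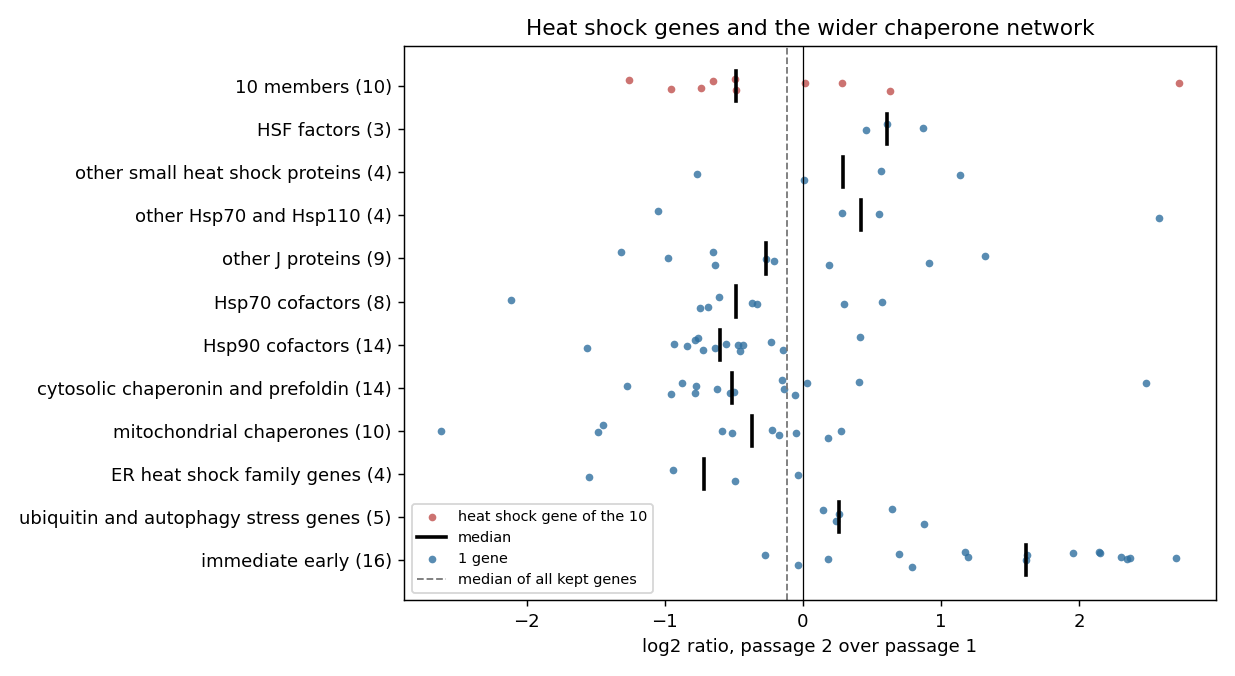
Log2 ratio of passage 2 over passage 1 for each kept gene of the 11 lists (blue points, number of genes in brackets) and for the 10 heat shock genes (red points), with the median of each list as a black bar and that of all kept genes as a dashed line. The bars of the HSP90 cofactors (-0.60) and the chaperonin (-0.52) lie left of the dashed line, and that of the immediate early genes (1.62) farthest right.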

How the data were processed

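RNA was measured in 67 single cells. Per the labels' protocols, cells were captured on a C1 system and libraries made with Nextera XT; per the submitters' processing notes, the tools were BWA, SAMtools, HTSeq and DESeq, and the genome GRCm38. The deposited signal values are, judged from the values and these notes, counts per gene scaled by the authors with 1 size factor for each cell. Multi-mapping and strand handling are not given in the sources used here. Dividing a cell's values by their smallest step gave back its reads: all 509576 values that were not 0 came out whole to within 0.001. Of 39179 rows, 37607 had a symbol in GENCODE M21, which also gave coordinates (GRCm38).

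Log2 ratios are log2(mean over cells + 1) at passage 2 minus passage 1. Ratios of summed reads have exact binomial intervals and shares of cells exact Clopper-Pearson intervals, at 95%. The study's unit of replication is not named, so no count test was run. No doublet caller was run. The 10 genes and the 11 lists were chosen with earlier results of these data known. Named genes were the 10, the highest mean and the 2 highest and 2 lowest ratios of each list (of which the text gives the main ones), and the 3 genes most like each member; Hspd1 was added as the neighbour of Hspe1. Alternatives were other pseudocounts (0.1 and 10), summaries, scalings, thinning, filters and cells left out, including each cell in turn; adding sequence copies was chosen after seeing the data. The script was tested on simulated data. Scripts ran in Python 3.11.15 with pandas 2.3.3, numpy 2.4.6, scipy 1.17.1 and matplotlib 3.10.9.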

Additional observations from a re-analysis of the deposited data

How the results depend on the processing

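Of the 10 genes, 4 had a higher mean at passage 2. This count was 2 with medians over cells, 2 when the 25% of cells with fewest detected genes were dropped, and 1 (Hspb1) in cells of the passages matched on reads, and between 3 and 4 with each cell left out in turn. The cause was not tested. The median log2 ratio of the 10 genes (-0.49) lay between -0.74 and -0.31 over the other settings and between -0.56 and -0.32 with each cell left out. The ratio of their mean share of reads (0.651) lay between 0.636 and 0.710 with each cell left out, and between 0.607 and 0.770 in the subsets of cells, an alternative chosen after seeing the data. Without Hspe1 the median was -0.48. Leaving out the filter on low values changed no value of the 10 genes, since the filter was applied to the background and not to them, and gave a background of 2527 of 20000 genes at a log2 ratio of 1 or more and 2800 at -1 or less. Genes with few reads, Hspa1a, Hspa1b and Hspb1 at passage 1, are limited by depth. No paired analysis was possible because the cells carry no replicate numbers that link the passages and each passage is 1 sample.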
